A study of Arabidopsis thaliana with 6 samples.

Results

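The genes described here carry out or switch on the copying of DNA in S phase in Arabidopsis thaliana. They are 34 loci listed by role: the origin recognition complex (ORC), CDC6 and CDT1, the MCM helicase, CDC45, the replicative polymerases with their clamp and ligase, ribonucleotide reductase, chromatin assembly factor 1, the enzymes that maintain DNA methylation, and the E2F and retinoblastoma-related regulators. Probes were assigned by the locus code in the array annotation. All 34 loci were found among the 34176 genes of the array, and all 34 were among the 24457 genes tested. A gene here is a distinct name in the array annotation, and 22006 of the 24457 carried a locus code. Shares of all genes in the main fit are over all 24457. All 34 were well above background on all 6 arrays, and 0 were saturated on any array.

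Whole fertilised flowers at stage 15 were compared between wild type and the T-DNA insertion line atnaod, in which AtNAOD (AT4G17830) is disrupted; this gene encodes N-acetylornithine deacetylase, which acts in ornithine synthesis. Plants of both genotypes grew on soil in a chamber at 25 °C with 16 h of light and 8 h of dark, without any treatment. There were 3 independent replicates per genotype, each of pooled flowers (about 100, taken from 17 to 20 plants) and each hybridised with Cy3 to 1 single-colour Agilent array. The labels name 1 mutant line, so the insertion and anything else that this line carries cannot be told apart.

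Levels are given as log2 intensity minus the 75th percentile of the array, and a change is the mean of 3 atnaod arrays minus the mean of 3 wild-type arrays on that scale. A change of -1 therefore is a fall to 50% of wild type. Levels of different genes were not compared, because each probe has its own brightness. A gene was called, and is said to have risen or fallen, where its adjusted p in limma over all 24457 genes was under 0.05. Whole flowers hold dividing and non-dividing cells, so that fewer cells in S phase and less RNA per cell cannot be told apart.

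Over the arrays the 75th percentile of processed intensity ranged from 1318 to 3007, with 73.2% to 79.2% of probes marked as detected well above background. At 1 of its probes AtNAOD stood at 1.69 ± 0.07 (SD, n = 3) in wild type and was above background on 0 of 3 atnaod arrays, at least 369-fold lower. Its second probe was above background on all 6 arrays and was lower by a log2 change of -1.23. Among all genes tested, 5.78% were called, 3.06% lower and 2.72% higher in atnaod. Each slide held both genotypes, the first with samples 1 and 2 and the other with sample 3. Within the replication genes 1 array of each genotype stood apart from its group. Wild type 1 was the highest of the 3 wild-type arrays for 29 of the 34, and atnaod 3 was the lowest of all 6 arrays for 27. Neither count was set against all genes, and the arrays were picked by the values of the 34 themselves. The main counts over the 34 are therefore also given without each of these arrays.

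Before S phase the ORC marks origins of replication, and CDC6 and CDT1 load the ring of MCM proteins there. CDC45 and the GINS complex then activate the helicase, the polymerases copy the opened strands while held by the PCNA clamp, and ribonucleotide reductase makes the deoxynucleotides. E2F factors with a DP partner switch on many of these genes, the retinoblastoma-related protein RBR1 represses them, and D-type cyclins relieve that repression. In a flower just after fertilisation, replication takes place in the embryo, the endosperm, the seed coat and other growing tissue of the fruit.

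Of the 34 replication genes 1 fell and 0 rose in atnaod, a share close to the 3.06% lower and 2.72% higher among all genes tested. The gene that fell was TSO2, a small subunit of ribonucleotide reductase, which was at 63.9% of wild type. The other 33 missed the threshold, although most had a lower mean in atnaod: 29 of the 34 changes were below 0, or 85.3%, against 51.2% of all genes tested. The median change of the 34 was -0.18, beside -0.01 for all genes tested. The changes ran from -0.65 for TSO2 to 0.24 for RBR1, the repressor of the pathway.

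For 10 of the 34 genes (29.4%), all 3 atnaod values lay below all 3 wild-type values, against 17% of all genes tested. For 0 of the 34 did all atnaod values lie above wild type, against 15.3% of all genes tested. At an unadjusted p under 0.05, 9 of the 34 were lower (26.5%), against a background of 13.9%, and 0 were higher, against 11.9%. These excesses shrank or were lost when 1 of the arrays that stood apart was left out. Without wild type 1, 3 of the 34 were lower at an unadjusted p under 0.05 (8.82%, against 14.4% of all genes), and without atnaod 3, 4 were (11.8%, against 10.54%). The count without overlap was 10 in both cases, against 24.4% and 21.8% of all genes. The excess by unadjusted p in limma remained in the settings that follow, all of which kept wild type 1. They therefore cannot show whether it holds without that array. On the first slide alone, without sample 3 of either genotype, 6 of the 34 were under 0.05, all lower (17.6%, against 8.084% of all genes). With the replicate number or the slide as a block 13 were under 0.05, of which 12 were lower (35.3%, against 16.65% and 16.3%). With the replicate number as a block, TSO2 was again the 1 gene called (background 2.72% lower and 2.58% higher). With slide as a block 4 were called lower, against 4.6% of all genes: TSO2, CDC6, ORC2 and AT5G26680. The 95% intervals also limit the size of any fall, since for 33 of the 34 genes they excluded a fall to 50% of wild type, the exception being ORC6.

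**Figure D1:**
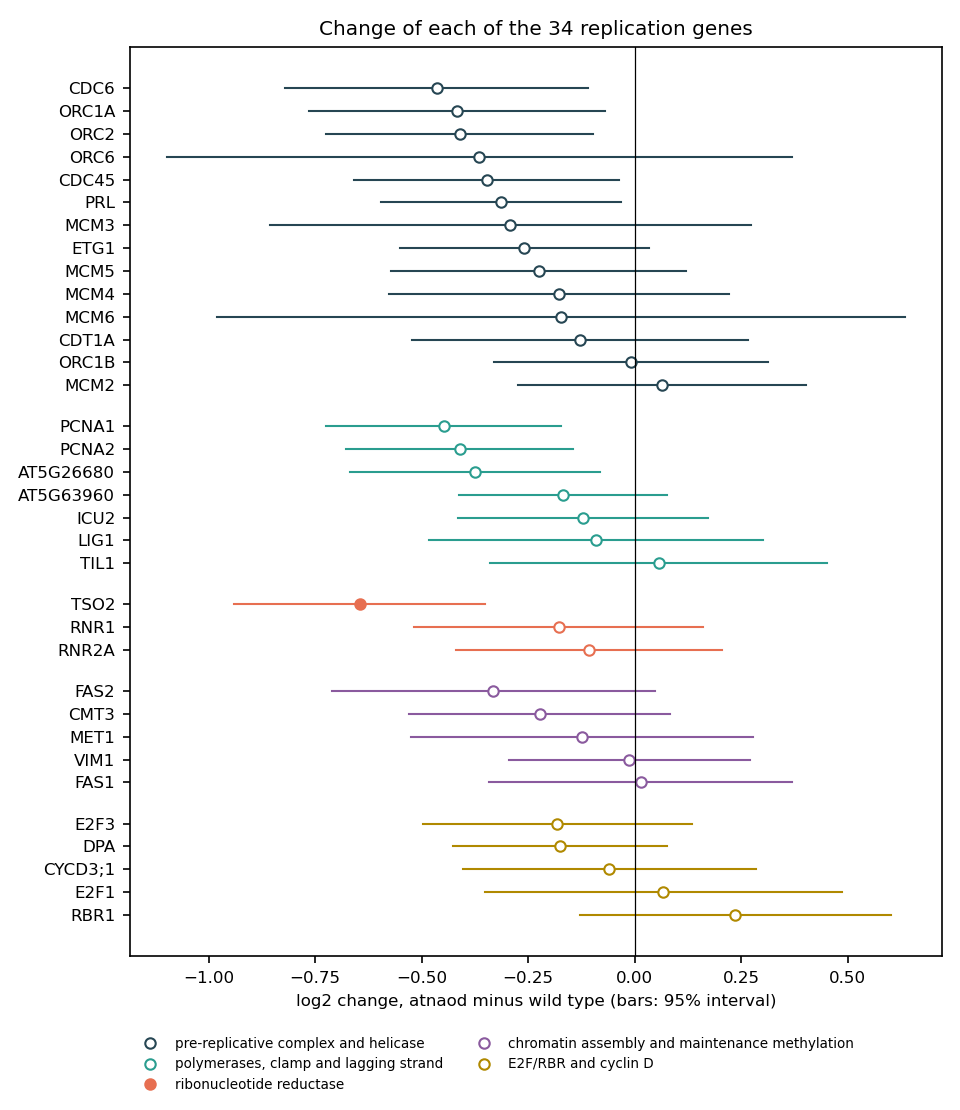
Log2 change of each of the 34 replication genes, atnaod minus wild type, with its 95% interval from limma (n = 3 per genotype), grouped by role; the filled point is the 1 gene called. TSO2 lies at -0.65, 29 of the 34 points lie left of 0, and the interval of 25 genes includes 0.

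Where the 34 genes stood on each array did not separate the genotypes cleanly. Their median deviation from the wild-type mean was 0.21, -0.10 and -0.11 on wild type 1 to 3, and -0.07, -0.09 and -0.41 on atnaod 1 to 3. The medians of the genotypes overlapped: atnaod 1 and atnaod 2 lay above wild type 2 and wild type 3. Counted by gene, 2, 26 and 28 of the 34 were below their own wild-type mean on wild type 1 to 3, and 22, 24 and 33 on atnaod 1 to 3. Without wild type 1, 22 of the 34 changes were below 0 and the median was -0.11. Without atnaod 3, 23 were below 0 and the median was -0.07. Both counts remained above the 51.8% and 52.3% of all genes with a change below 0 under the same omissions, at 64.7% and 67.6%, and 0 of the 34 were called in either case.

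**Figure D2:**
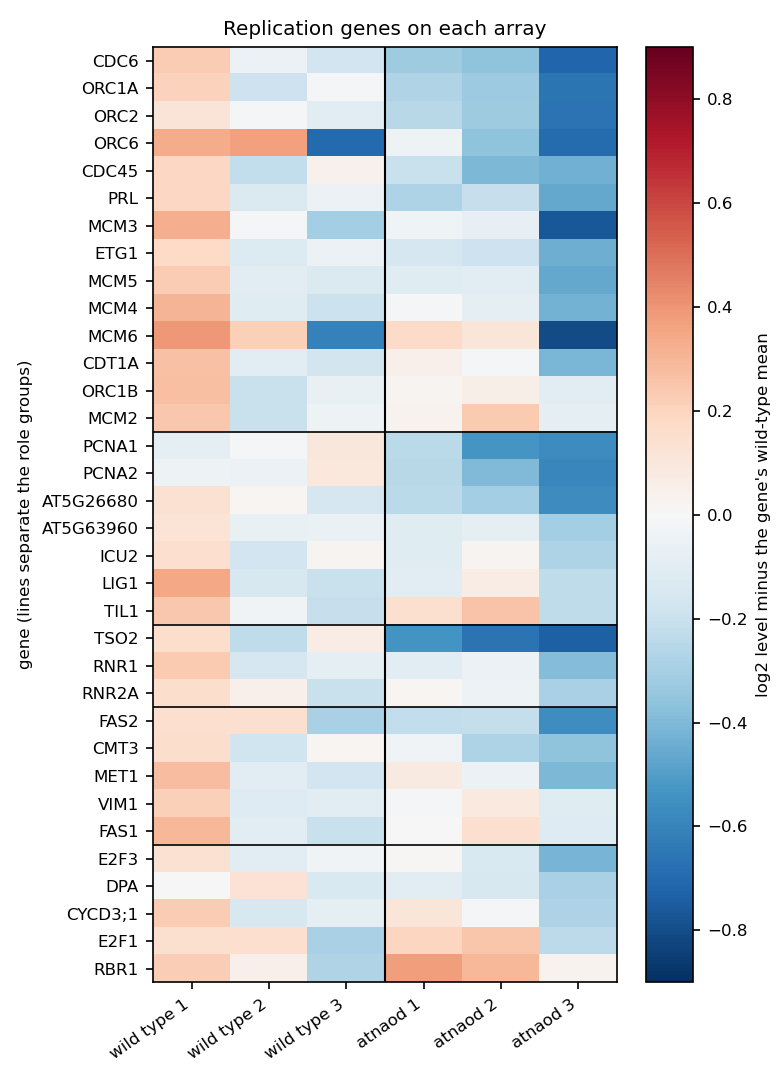
Each cell is the log2 level of 1 replication gene on 1 array minus that gene's wild-type mean (colour scale in log2 units, blue lower and red higher), with the arrays in columns and the genes in rows by role. Wild type 1 is red in most rows, atnaod 3 is blue in most rows, and wild type 2, wild type 3, atnaod 1 and atnaod 2 are mixed for many genes.

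Each slide gave a median below 0, with -0.15 for the first and -0.26 for the second. Of the 34 genes, 26 were lower in atnaod on both slides, a count that was not set against all genes. In all 3 same-number pairs 19 were lower, a share of 55.9% against 28.3% of all genes. The change exceeded the wild-type SD in size for 16 genes and the whole wild-type range for 7, counts also not set against all genes.

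Ribonucleotide reductase, which supplies deoxynucleotides, is made of a large subunit and a small subunit. TSO2 (AT3G27060), a small subunit, read 3.62, 3.23 and 3.52 in the wild-type samples 1 to 3, against 2.92, 2.79 and 2.72 in the atnaod samples 1 to 3. All 3 atnaod values were below the lowest wild-type value, and the groups did not overlap. TSO2 thus fell by 0.65 on the log2 scale (SE 0.124, 95% interval -0.94 to -0.35, limma adjusted p = 0.0371), with an adjusted p of 0.0442 under the replicate block. The slides gave changes of -0.57 (first) and -0.80 (second). Another TSO2 probe gave -0.69, with an adjusted p over all probes of 0.0620. The call was sensitive to the processing: TSO2 was lower in atnaod in all 18 alternatives, by 0.57 to 0.76, but passed the threshold in 9 of them (adjusted p from 0.0164 to 0.227). It missed the threshold when any of the wild-type samples, atnaod 2 or atnaod 3 was left out.

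RNR2A (AT3G23580), the other small subunit among the 34, read 1.0, 0.88 and 0.64 in the wild-type samples, against 0.86, 0.80 and 0.55 in the atnaod samples. These values overlapped, the change was -0.11 (95% interval -0.42 to 0.20), and its other probes gave -0.06 and -0.10. The change of RNR2A minus that of TSO2 was 0.54, with an exact two-sided permutation p of 0.1, which is the smallest that 3 against 3 samples allow. Within same-number pairs the smallest exact p is 0.25, and it was 0.25 here. The permutation p of 0.1, adjusted over the 4 pairs of related genes compared in this way, was 0.2. RNR1 (AT2G21790), the large subunit, had a change of -0.18 (-0.52 to 0.16, adjusted p = 0.482), with overlapping groups.

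**Figure D3:**
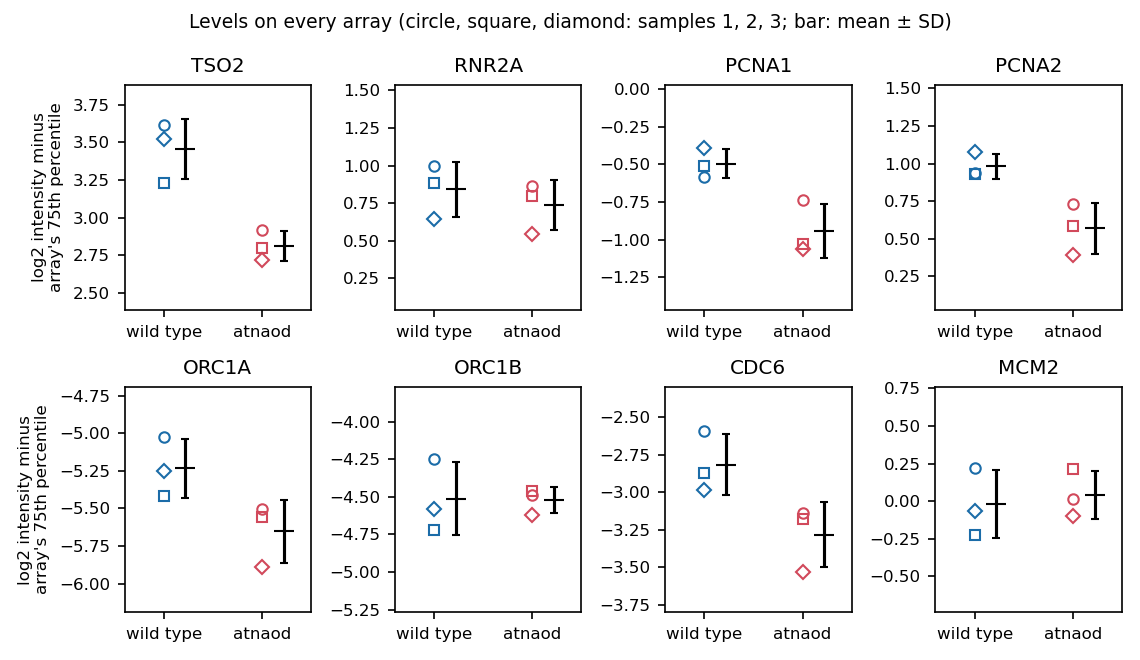
Log2 intensity relative to the 75th percentile of each array, shown on every array for 8 replication genes, with wild type in blue and atnaod in red, marker shapes for samples 1 to 3, and bars for mean ± SD (n = 3). The groups are apart for TSO2, PCNA1, PCNA2, ORC1A and CDC6, and overlap for RNR2A, ORC1B and MCM2.

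Of the 14 origin licensing and helicase genes 0 were called, and 5 were lower at an unadjusted p under 0.05 in limma (35.7%, against 13.9% of all genes). ORC2 (AT2G37560), a subunit of the origin recognition complex, read -2.21, -2.35 and -2.43 in the wild-type samples, against -2.58, -2.65 and -2.99 in the atnaod samples. CDC6 (AT2G29680), the factor that loads MCM together with CDT1, read -2.59, -2.87 and -2.99 in the wild-type samples, against -3.14, -3.18 and -3.53 in the atnaod samples. Neither gene's groups overlapped, and in both atnaod 3 was the lowest array. Their changes were -0.41 (95% interval -0.72 to -0.10) and -0.46 (-0.82 to -0.11), and both missed the threshold at adjusted p = 0.112 and 0.113. With slide as a block both passed, at 0.0492 and 0.0460.

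ORC1A (AT4G14700) and ORC1B (AT4G12620) encode alternative forms of the largest ORC subunit. ORC1A read -5.03, -5.42 and -5.25 in the wild-type samples, against -5.50, -5.56 and -5.89 in the atnaod samples, without overlap. ORC1B read -4.25, -4.72 and -4.58 in the wild-type samples, against -4.49, -4.46 and -4.62 in the atnaod samples, and its atnaod values lay within the wild-type range. The changes were -0.42 (95% interval -0.77 to -0.07, adjusted p = 0.135) and -0.01 (-0.33 to 0.31). Their difference was -0.41, with the smallest exact permutation p that 3 against 3 samples allow (0.1 two-sided, 0.2 adjusted over the 4 pairs). By sign flips within same-number pairs the exact p was 0.25, also the smallest possible. ORC6 (AT1G26840), another ORC subunit, had a change of -0.37 with a wide interval (-1.10 to 0.37), and wild type 3 read -5.24 against -4.21 and -4.17 on the other wild-type arrays. CDT1A (AT2G31270), the partner of CDC6 in MCM loading, had a change of -0.13 (-0.52 to 0.27).

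Of the 6 subunits of the MCM helicase 0 were called, and their changes ran from -0.31 to 0.06. MCM7, listed in RefSeq as PRL (PROLIFERA, AT4G02060), read 1.93, 1.62 and 1.70 in the wild-type samples, against 1.47, 1.54 and 1.29 in the atnaod samples. The groups did not overlap, and the change was -0.31 (95% interval -0.60 to -0.03, limma adjusted p = 0.158). A second PRL probe gave -0.12. MCM2 (AT1G44900) read 0.22, -0.22 and -0.06 in the wild-type samples, against 0.01, 0.22 and -0.10 in the atnaod samples, and so had the 1 mean above wild type in this group (0.06, -0.27 to 0.40). MCM3 (AT5G46280), MCM4 (AT2G16440), MCM5 (AT2G07690) and MCM6 (AT5G44635) lay between -0.29 and -0.17, each with overlapping groups and an interval that included 0. For MCM6 the slides differed more than the genotypes: sample 3 read -2.52 in wild type and -2.72 in atnaod, and the other 4 arrays read -1.81 to -1.53.

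CDC45 (AT3G25100), which activates the loaded helicase, read -1.31, -1.72 and -1.46 in the wild-type samples, against -1.70, -1.91 and -1.94 in the atnaod samples. Only wild type 2 and atnaod 1 crossed, and the change was -0.35 (95% interval -0.66 to -0.04, adjusted p = 0.157). ETG1 (AT2G40550), an MCM-binding protein first described as an E2F target, read 0.70, 0.40 and 0.47 in the wild-type samples, against 0.37, 0.34 and 0.08 in the atnaod samples. Its groups did not overlap by a narrow margin, and its change of -0.26 had an interval that included 0 (-0.55 to 0.03). Over the role group, 13 of the 14 licensing and helicase genes had a change below 0, with a median of -0.28, and 5 of the 14 (35.7%, against 17% of all genes) had groups that did not overlap.

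At the fork, the PCNA clamp genes stood next to TSO2 in their p-values. PCNA1 (AT1G07370) read -0.58, -0.51 and -0.39 in the wild-type samples, against -0.74, -1.03 and -1.06 in the atnaod samples. PCNA2 (AT2G29570) read 0.94, 0.93 and 1.07 in the wild-type samples, against 0.73, 0.59 and 0.39 in the atnaod samples. In both genes every atnaod array lay below every wild-type array, and wild type 3 was the highest array, unlike for most of the 34 genes. The changes were -0.45 (SE 0.117, 95% interval -0.72 to -0.17, adjusted p = 0.0699) and -0.41 (SE 0.112, -0.68 to -0.15, adjusted p = 0.0782). The 2 changes differed by -0.04 (exact permutation p = 0.6, two-sided), which does not show that the genes respond alike. Both passed the threshold with a trended and robust prior or with array weights, settings that called 9.24% and 15.9% of all genes, against 5.78% in the main fit. PCNA1 also passed without atnaod 1, where 6.34% of all genes were called.

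Of the replicative polymerase and ligase genes 0 were called in limma, and 0 had an unadjusted p under 0.05. ICU2 (AT5G67100), the polymerase alpha subunit that starts each new strand, had a change of -0.12 (95% interval -0.41 to 0.17). TIL1 (AT1G08260), the catalytic subunit of polymerase epsilon, had a change of 0.06 (-0.34 to 0.45). AT5G63960, which is counted among the replicative polymerases, had a change of -0.17 (-0.41 to 0.08) without overlap between the groups. The DNA ligase gene LIG1 (AT1G08130), which seals nicks between new fragments, had a change of -0.09 (-0.48 to 0.30).

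AT5G26680, a member for which the gene table used here gives no name, read -2.02, -2.14 and -2.30 in the wild-type samples, against -2.40, -2.46 and -2.72 in the atnaod samples. The groups did not overlap, the change was -0.37 (95% interval -0.67 to -0.08, adjusted p = 0.119), and a second probe gave -0.46. It passed with slide as a block (adjusted p = 0.0457). Over these 7 fork genes 6 changes were below 0, the median was -0.17, and 4 (57.1%, against 17% of all genes) had groups that did not overlap.

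Genes that restore chromatin and DNA methylation behind the fork showed 0 calls in limma and 0 genes with an unadjusted p under 0.05. The subunits of chromatin assembly factor 1, which places new nucleosomes, had changes of 0.01 for FAS1 (AT1G65470, 95% interval -0.34 to 0.37) and -0.33 for FAS2 (AT5G64630, -0.71 to 0.05). MET1 (AT5G49160), which copies CG methylation to the new strand, had a change of -0.12 (-0.53 to 0.28), and VIM1 (AT1G57820), a protein needed for that step, one of -0.01 (-0.30 to 0.27). CMT3 (AT1G69770), the methyltransferase that maintains CHG methylation, had a change of -0.22 (-0.53 to 0.08). The groups of all 5 genes overlapped, and their median was -0.12.

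The regulators of S-phase entry had a median closer to 0 than the other role groups, at -0.06, and 3 of the 5 were below 0, with 0 called and 0 at an unadjusted p under 0.05. RBR1 (AT3G12280), which represses E2F targets, read -1.12, -1.30 and -1.61 in the wild-type samples, against -0.97, -1.04 and -1.31 in the atnaod samples. It was higher in atnaod in each same-number pair, but the groups overlapped and the change of 0.24 had an interval of -0.13 to 0.60 (adjusted p = 0.382). The activator E2FA, listed as E2F3 (AT2G36010), read -1.87, -2.11 and -2.04 in the wild-type samples, against -2.00, -2.14 and -2.43 in the atnaod samples. Its relative E2FB, listed as E2F1 (AT5G22220), read -2.56, -2.56 and -3.00 in the wild-type samples, against -2.52, -2.46 and -2.94 in the atnaod samples. Their changes of -0.18 (95% interval -0.50 to 0.13) and 0.07 (-0.35 to 0.49) differed by -0.25 (exact permutation p = 0.3, two-sided). DPA (AT5G02470), the dimer partner of E2F, had a change of -0.17 (-0.43 to 0.08), and the D-type cyclin CYCD3;1 (AT4G34160), which promotes S-phase entry, one of -0.06 (-0.40 to 0.28).

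A further 60 replication genes, listed for their roles and outside the 34, were read in the same fit. They comprised other subunits of ORC, the MCM relatives, GINS, the polymerases, replication factor C, replication protein A (RPA), enzymes of nucleotide supply, chromatin factors and S-phase regulators. Of these 60, 52 had a change below 0 (86.7%), the median was -0.22, and for 29 (48.3%) all atnaod values lay below all wild-type values, against 17% of all genes. On the 6 arrays the median deviation from wild type stood at 0.07, -0.04 and -0.04 for the wild-type samples 1 to 3, against -0.16, -0.19 and -0.37 for the atnaod samples 1 to 3. Unlike for the 34, these medians did not overlap between the genotypes. Without wild type 1 the count below 0 was 49 and the median -0.22, and without atnaod 3 they were 50 and -0.15. The count without overlap was then 31 (51.7%, against 24.4% of all genes) and 32 (53.3%, against 21.8%).

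Of the 60 genes 1 fell and 1 rose, against 5.78% of all genes called in either direction. AT3G52630, listed as a subunit of RPA, the complex that coats single-stranded DNA, read -0.52, -0.10 and -0.20 in the wild-type samples, against -0.87, -1.02 and -1.29 in the atnaod samples. The groups were apart, and the gene fell by 0.79 on the log2 scale (SE 0.154, limma adjusted p = 0.0376). ATE2F2, which is E2FC, an E2F described as a repressor of cell-cycle genes, read -1.26, -1.20 and -1.26 in the wild-type samples, against -0.81, -0.78 and -0.89 in the atnaod samples. It rose by 0.42 (SE 0.0817, adjusted p = 0.0381), with every atnaod array above every wild-type array. Neither passed with the replicate block (0.0555 and 0.0512), where the 1 gene called was CYCA3;1, an A-type cyclin, at -0.53 (adjusted p = 0.0487, against 0.0750 without the block). Leaving out 1 sample gave 0 calls among the 60 without wild type 2, wild type 3, atnaod 2 or atnaod 3, 1 without wild type 1 and 7 without atnaod 1.

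The genes next in order of p all had non-overlapping groups with atnaod lower, a pattern that choosing by low p favours. In the main fit 0 of them passed. RNR2B, a ribonucleotide reductase locus that RefSeq lists as a transcribed pseudogene, had a change of -0.49 (limma adjusted p = 0.05002). EMB1968, a subunit of replication factor C, which loads the PCNA clamp, had a change of -0.38. DEL3, an atypical E2F, had a change of -0.49 and passed with slide as a block (limma adjusted p = 0.0481). The RPA subunit gene RPA32B had a change of -0.39. The nucleotide supply genes TK1a, a thymidine kinase, and DUT1, a dUTPase, had changes of -0.46 and -0.56. By role, 8 of 9 RPA genes were below 0 with a median of -0.39. For 7 of them (77.8%, against 17% of all genes) all atnaod values lay below all wild-type values. All 6 nucleotide genes were below 0, with a median of -0.38. All 5 GINS and all 8 further polymerase genes were also below 0, against 51.2% of all genes. The regulators were more mixed, with 7 of 10 below 0.

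**Figure D4:**
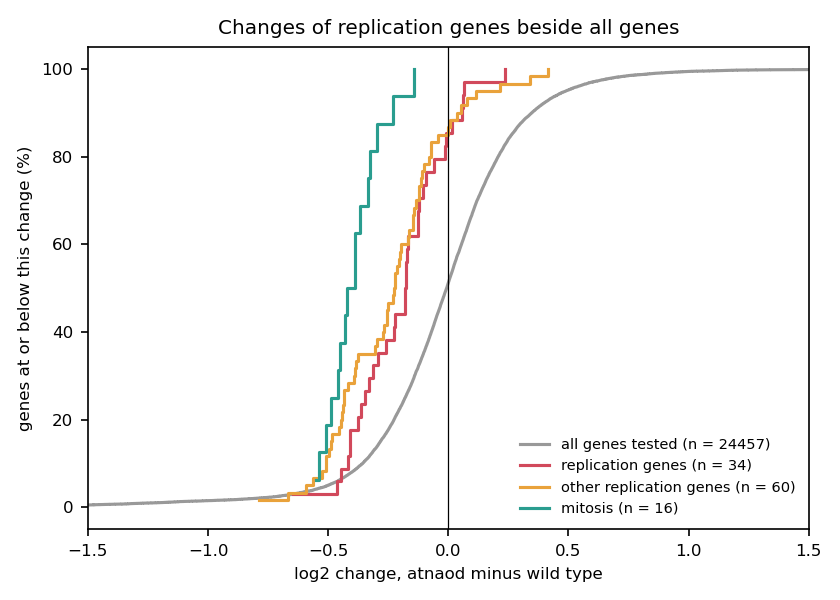
Share of genes (%) at or below each log2 change, atnaod minus wild type, for the 34 replication genes, the 60 further replication genes, 16 mitosis genes and all 24457 genes tested. The 3 cell-cycle curves lie left of the curve of all genes, and 51.2% of all genes, 85.3% of the 34, 86.7% of the 60 and 100% of the mitosis genes are below 0; changes larger in size than the axis are not shown.

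The later cell cycle was read from 16 mitosis genes, whose difference from the 34 was not tested. All 16 mitosis genes had a change below 0, with a median of -0.40, and 10 (62.5%, against 17% of all genes) had groups that did not overlap. Of the 16, 0 were called, against 3.06% of all genes lower, and 12 (75%, against 13.9%) were lower at an unadjusted p under 0.05 in limma. CYCB1;4, a B-type cyclin, had a change of -0.45 (adjusted p = 0.0557) and the mitotic kinase gene CDKB1;2 one of -0.46 (adjusted p = 0.0693). With the replicate block 2 passed, the cytokinesis syntaxin SYP111 at -0.49 (adjusted p = 0.0467) and the B-type cyclin CYCB1;1 at -0.51 (0.0496). The median over these 16 stayed below 0 without wild type 1 (-0.34) and without atnaod 3 (-0.30), with 16 of 16 below 0 in both cases.

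DNA damage response genes, which share CYCB1;1 with the mitosis list, were below 0 in 8 of 9 cases with a median of -0.23. Of these 0 were called, and 4 were lower at an unadjusted p under 0.05 in limma (44.4%, against 13.9% of all genes). The repair gene BARD1 had a change of -0.46 (adjusted p = 0.0808). Genes of endoreduplication, the copying of DNA without division, were mixed, with 7 of 11 below 0, a median of -0.03 and 0 called. At an unadjusted p under 0.05 in limma 3 were lower (27.3%, against 13.9% of all genes). The lowest p-values there were those of ICK3, a cyclin-dependent kinase inhibitor, at -0.33 and of FZR3, an activator of the anaphase-promoting complex, at -0.36.

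Markers of the tissues that make up the flower were read on the same arrays, and their part in the replication values was not tested. Their lists were chosen with earlier results of these data known, so the shares called in them may depend on that choice. Summed over 12 ovule and seed coat markers, all above background on every array, the linear level relative to the array's 75th percentile was 20.1 to 21.6 in wild type and 11.7 to 14.8 in atnaod. Of these 12, 7 fell, against 3.06% of all genes lower, and the median change was -0.69. The list was not uniform: TT10, INO and ANT were above 0, at 0.16, 0.05 and 0.03, and TT16 was at -0.10. Of 18 endosperm and early embryo markers 10 were above background on all arrays, and IKU2 and PHE1 were above it on none. The summed level of all 18, dim markers included, was 0.915 to 0.996 in wild type and 0.697 to 0.824 in atnaod. Of the 12 tested 3 fell, against 3.06% of all genes lower, and the median was -0.58. Here too the list was not uniform: 10 were below 0, and MEA and HB-3 were above it, at 0.38 and 0.05. AGL90, 1 of the 3 that fell, and AGL36 were kept only through the wild-type arrays. They were above background on 2 and 1 of the 3 atnaod arrays, and both enter the median.

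Mature pollen markers had a median change of 0.31, and all 18 tested were above 0, whereas 51.2% of all genes were below it. The markers differed between the atnaod arrays. Of 20 markers 18 were above background on all arrays, and the summed levels overlapped, at 28.7 to 32.9 in wild type and 24.9 to 48.4 in atnaod. Of the 18 tested 0 were called, and 1 was higher at an unadjusted p under 0.05 in limma, against 11.9% of all genes. Their median deviation was -0.18, 0.33 and 0.71 on atnaod 1 to 3, so that atnaod 3, the array with the lowest replication values, had the highest pollen values. The 13 green tissue markers were all above background, with summed levels of 1083 to 1394 in wild type and 1037 to 1340 in atnaod, a median change of 0.00 and 0 called (0 also at an unadjusted p under 0.05).

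**Figure D5:**
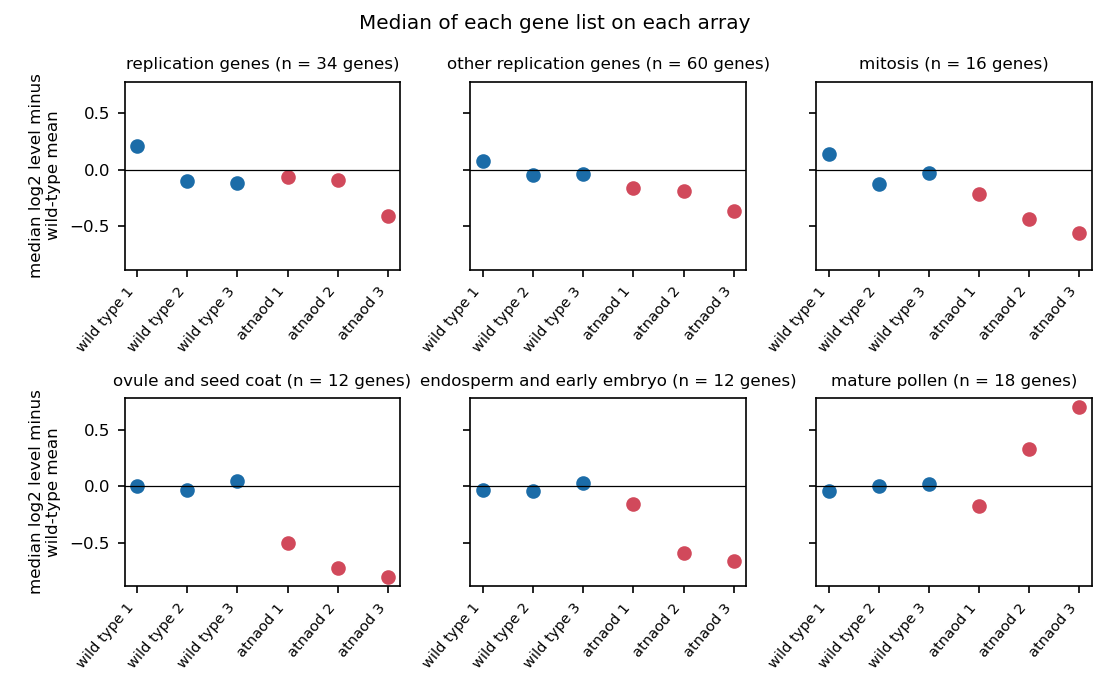
Median log2 level minus the wild-type mean on each array for 6 gene lists, with wild type in blue and atnaod in red (1 point per array; n in each title is the number of genes tested). The genotypes overlap for the 34 replication genes and for mature pollen, and are apart for the 60 further replication genes, mitosis, ovule and seed coat, and endosperm and early embryo.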

How the data were processed

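RNA of fertilised flowers was measured on 6 arrays, 3 wild type and 3 atnaod, grouped by the genotype in the labels. Per the file headers, the deposited scanner files hold spot intensity read by Agilent Feature Extraction 10.5.1.1 (10.5 per the submitters' processing notes), and the processed intensity was background subtracted and spatially detrended within each array, not normalized between arrays. The deposited values were checked to be the median spot intensity times a constant of each array. The number of arrays limits the precision.

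From the processed intensity, log2 was taken and the array's 75th percentile subtracted. Outlier spots and controls were left out, spots of 1 probe were averaged, and a probe was kept if every array of either genotype marked it as well above background (32496 of 43603). The probe with the highest mean stood for its gene. Genes were fitted with lmFit and eBayes of limma 3.58.1 in R 4.3.3 (data.table, version 1.17.8), two-sided, with Benjamini-Hochberg adjustment over all 24457 genes, and the fit was checked on simulated data. Related genes were compared by exact permutation over the samples, and, as a test added after the data were seen, by sign flips within same-number pairs.

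Symbols come from the RefSeq gene list (TAIR10.1). The array headers name another build, so no coordinates are given. Probe and promoter sequences were not used, and cross-hybridisation between related genes was not analysed here.

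The members and gene lists were chosen with earlier results of these data known. All 34 members are named. Array values are given for members called, the 10 of lowest p and related gene pairs. Of the 60 further genes, those called and 6 more of lowest p are named, and of the other lists those called and 2 more. A gene that this rule names is not reported here. CYCA3;1, SYP111 and CYCB1;1, and the array values of MCM2, RBR1, ORC6 and MCM6, were chosen after their values were seen.

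Replicate numbers come from the labels. Across genes, deviations from the genotype mean of samples with the same number correlated at 0.190, 0.111 and 0.535, so the number was also fitted as a block. The main fit, which gave the intervals and the calls, held no block and did not pair the samples. The different-number pairs on the first slide correlated at 0.215 and 0.105, so there the number is not told apart from the slide. Slide and scan date fall together. Alternatives were normexp correction, quantile and median scaling, the deposited values, 2 other filters, the mean over probes, array weights, a trended and robust prior, a replicate or slide block, the first slide alone, and leaving out each sample. Normexp (offset 50) used the median signal, with 5 spots of extreme background set to the array's median.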

Additional observations from a re-analysis of the deposited data

How the results depend on the processing

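The median change of the 34 replication genes was below 0 in all 18 alternatives (-0.27 to -0.07), with 22 to 33 genes below 0, and the median of the 60 further genes was -0.28 to -0.15. The calls rested on the setting. Of the 34, 0 were called with normexp, the deposited values, the dim probes kept in or the first slide alone, 3 with a trended and robust prior or with array weights (TSO2, PCNA1 and PCNA2), and 4 with slide as a block. Of the 60, 0 were called with normexp, the deposited values, no filter or the first slide alone, 7 with the trended and robust prior, 14 with array weights, 5 with the slide block and 1 with the replicate block. Pairing by replicate number kept TSO2 and changed no other call among the 34. Sign flips within same-number pairs, added after the data were seen, gave exact p-values of 0.25 (3 of the 4 related gene pairs) and 1 (PCNA1 and PCNA2), where 0.25 is the smallest possible. Over all genes the calls numbered 1414, against 243 with normexp, 6 with the deposited values, 22 without a filter, 13 on the first slide, 2259 with the trended prior, 3897 with array weights and 2123 with slide as a block.

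Leaving out 1 sample gave 0 to 2 calls among the 34, a median of -0.27 to -0.07 and 22 to 33 genes below 0, and 0 to 7 calls with a median of -0.28 to -0.15 among the 60. TSO2 missed the threshold without wild type 1, 2 or 3 (adjusted p = 0.0697, 0.0877 and 0.113) and without atnaod 2 or 3 (0.137 and 0.110), and likewise with normexp (0.0539), the deposited values (0.0635), no filter (0.118) and the first slide (0.227). Its highest unadjusted p was 0.0152, and the cause of these losses was not tested.

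Direction changed only for genes whose change in the report lay between -0.18 and 0.07. ORC1B was at 0.011 with quantile scaling, 0.013 with median centring, 0.094 with array weights and 0.0079 on the first slide. VIM1 was at 0.012 with normexp, 0.0085 with median centring, 0.014 with the deposited values and 0.089 with array weights. With array weights MCM6 was at 0.00031, LIG1 at 0.067 and CYCD3;1 at 0.018. On the first slide FAS1 was at -0.022 and CYCD3;1 at 0.0100. Leaving out 1 sample gave -0.11 to 0.13 for ORC1B, -0.21 to 0.014 for CDT1A, -0.038 to 0.18 for MCM2, -0.48 to 0.14 for MCM6, -0.049 to 0.20 for TIL1, -0.19 to 0.083 for LIG1, -0.088 to 0.16 for FAS1, -0.23 to 0.014 for MET1, -0.071 to 0.095 for VIM1, -0.079 to 0.22 for E2F1 and -0.14 to 0.054 for CYCD3;1.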
